A study of Mus musculus with 2 samples.

Results

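The genes Nr4a1, Nr4a2 and Nr4a3, which encode the NR4A orphan nuclear receptors, were followed through 2 mouse brain libraries. These are 3 of the 32285 genes in the count tables, chosen by symbol. The choice came from earlier results on the same data, in which Nr4a2 stood among the genes that differ within hippocampal area CA1, so levels by cell class and within CA1 are given as a description and no test was made. The study tagged nuclei of frozen tissue sections with spatial barcodes and sequenced them as single-nucleus RNA (Slide-tags). The adult library came from a coronal section of the hippocampus of male C57BL/6J mice aged 56 days, which were perfused under isoflurane before the brain was frozen. The embryonic library came from a sagittal section of the brain of a C57BL/6J embryo at day 14 (E14), snap-frozen whole. Both were of an inbred wild-type strain with no treatment compared, and each tissue had 1 library, so nuclei were not replicates and no p-value was given.

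NR4A receptors are transcription factors that work without a known hormone, because their ligand pocket is filled by bulky side chains. Their messages are made within minutes of a rise in calcium or cyclic AMP, through the factors CREB, MEF2 and SRF, which places them among the immediate early genes of active neurons together with Fos, Arc and Npas4. Nr4a2 is in addition a lasting identity gene of midbrain dopamine neurons and of deep cortical and claustral neurons, and NR4A activity in the hippocampus is known for its part in the consolidation of memory.

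The promoters are shown because CREB binds the cyclic AMP response element, whose half-site (TGACG, or CGTCA on the other strand) recurred in all 3. Each sequence runs from 250 bases before to 50 bases after a transcription start in RefSeq on GRCm38.p6, 5′ to 3′ on the strand of the gene, with the half-sites in capitals. The windows are chr15:101266596-101266895 on the plus strand for Nr4a1, chr2:57123954-57124253 on the minus strand for Nr4a2 and chr4:48045055-48045354 on the plus strand for Nr4a3.
Nr4a1: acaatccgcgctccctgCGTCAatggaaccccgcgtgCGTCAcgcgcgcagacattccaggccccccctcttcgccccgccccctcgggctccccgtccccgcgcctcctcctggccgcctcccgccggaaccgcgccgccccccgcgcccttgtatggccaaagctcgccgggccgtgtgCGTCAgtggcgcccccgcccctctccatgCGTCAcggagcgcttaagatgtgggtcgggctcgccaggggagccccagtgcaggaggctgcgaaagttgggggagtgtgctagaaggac
Nr4a2: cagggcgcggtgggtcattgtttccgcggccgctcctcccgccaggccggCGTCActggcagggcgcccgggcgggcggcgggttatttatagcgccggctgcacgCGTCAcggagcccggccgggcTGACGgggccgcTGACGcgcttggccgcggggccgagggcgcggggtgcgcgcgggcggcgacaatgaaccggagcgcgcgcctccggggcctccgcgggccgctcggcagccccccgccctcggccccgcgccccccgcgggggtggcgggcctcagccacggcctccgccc
Nr4a3: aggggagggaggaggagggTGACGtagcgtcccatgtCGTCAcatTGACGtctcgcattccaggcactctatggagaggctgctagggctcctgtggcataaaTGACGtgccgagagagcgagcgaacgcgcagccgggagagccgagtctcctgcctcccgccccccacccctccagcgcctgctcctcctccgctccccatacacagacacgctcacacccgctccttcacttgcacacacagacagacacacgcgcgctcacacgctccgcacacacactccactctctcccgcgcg
Each of the 3 windows held 4 half-sites, counted on both strands. At least 1 half-site was found in 20.8% of 32851 promoters of the same length, and 4 or more in 76 of them, which is 0.231%. The cut of 4, also used below, was taken from these 3 windows, so that all 3 reach it was fixed in advance. G and C made up 72.3%, 81.7% and 64.7% of the windows of Nr4a1, Nr4a2 and Nr4a3, and the other promoters were not matched for this. The half-sites lay between 40 and 233 bases before the start in Nr4a1, between 111 and 200 in Nr4a2 and between 147 and 231 in Nr4a3. None of the 3 windows held the full palindrome TGACGTCA, which occurs in 1.79% of promoters, or the NR4A response element AAAGGTCA, which occurs in 1.51%. Of a list of 16 immediate early genes, 12 had a promoter in the table and 10 of these held a half-site, but none held 4, and the full element was found in 2 of them, Dusp1 and Btg2. A match is a string of letters in this window and was not measured as binding.

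The genes differ in length, and reads from introns were counted, so levels are compared between cells for 1 gene and not between genes. In GENCODE vM21, Nr4a1 spans chr15:101254269-101274795 (20527 bases, of which 3509 are exonic), Nr4a2 spans chr2:57106830-57124003 (17174 bases, 4059 exonic) and Nr4a3 spans chr4:48045153-48086447 (41295 bases, 5987 exonic). Exons made up 17.1%, 23.6% and 14.5% of these spans. The promoter window of Nr4a1 lies inside the annotated span, since some transcripts start farther upstream.

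After filtering, 1609 of 1661 adult and 9036 of 9037 embryonic nuclei remained, with 15346746 and 58923882 unique molecular identifiers (UMIs, each marking 1 captured RNA molecule) and medians of 6607 and 4204 per nucleus. Nuclei were put into classes by UMIs of marker genes, 72.3% of them in the adult and 38.7% in the embryo, and the rest stayed without a class. A class is written with the ending -like, because its name rests on markers. The 11 adult classes of at least 20 nuclei had each marker of their list detected, except Cux2 in the cortical excitatory-like nuclei. In the embryo, the hypothalamic-like class rested on 3 of 8 markers, and the class called by the midbrain dopaminergic list lacked Foxa2 and is not given that name below. The 2 libraries shared 1 barcode. In the embryo, Ttr, a choroid plexus gene taken as a sign of free RNA, was present in all classes and ranged from 197 UMIs per 1000000 UMIs in cortical excitatory-like to 32385 in choroid plexus-like nuclei.

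Over the whole adult library, Nr4a1 had 527 UMIs in 234 nuclei, which is 34.3 per 1000000 UMIs (CPM; 95% exact Poisson interval 31.5 to 37.4). Nr4a2 had 478 UMIs in 177 nuclei (31.1 CPM, 28.4 to 34.1) and Nr4a3 had 409 UMIs in 158 nuclei (26.7 CPM, 24.1 to 29.4). Intervals cover counting error only. In the embryo the totals were 330, 670 and 530 UMIs, or 5.60 (5.01 to 6.24), 11.4 (10.5 to 12.3) and 8.99 (8.25 to 9.79) CPM. Each gene was thus lower in the embryonic than in the adult library per UMI sequenced. Tissue, age, library and depth differ together, so their parts in this difference cannot be told apart.

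In the adult, Nr4a1 was high in pyramidal and other neuronal classes and low in dentate granule-like nuclei. Its summed level was highest in the cortical excitatory-like nuclei (116 CPM, 81.3 to 161, from 36 UMIs in 20 nuclei) and in the CA1-like nuclei (91.3 CPM, 80.9 to 103, from 278 UMIs in 175 nuclei). CA3-like (50.9 CPM), inhibitory-like (37.1) and thalamic-like nuclei (36.9) followed, then endothelial-like (24.1), oligodendrocyte precursor-like (16.7), oligodendrocyte-like (9.25) and astrocyte-like nuclei (5.68). Dentate granule-like nuclei had 7 UMIs among 251 nuclei, or 1.90 CPM (0.762 to 3.91), and microglia-like nuclei had 0 UMIs in 45 nuclei (interval up to 19.1). Of neighbours in this order, only CA1-like and CA3-like nuclei had intervals that did not overlap.

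Nr4a2 followed another order. Cortical excitatory-like nuclei led with 129 CPM (92.2 to 176), and their interval lay above that of the CA1-like nuclei, which had 204 UMIs or 67.0 CPM (58.1 to 76.8). CA3-like nuclei had 56.6 CPM and endothelial-like nuclei 45.2 (25.3 to 74.5), with overlapping intervals. Oligodendrocyte precursor-like (16.7), oligodendrocyte-like (16.4), dentate granule-like (12.5) and astrocyte-like nuclei (7.95) came next. Thalamic-like and inhibitory-like nuclei, which had Nr4a1 at 36.9 and 37.1 CPM, held 1 Nr4a2 UMI each, 0.709 (0.0180 to 3.95) and 1.86 (0.0470 to 10.3) CPM. Both classes thus held Nr4a1 but almost no Nr4a2 at these depths.

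Nr4a3 was highest in CA3-like nuclei, the pyramidal neurons that receive the mossy fibres, with 110 UMIs in 36 nuclei or 156 CPM (128 to 188). Cortical excitatory-like nuclei had 87.1 CPM (57.4 to 127) and CA1-like nuclei 51.2 (43.5 to 59.9). The interval of the CA3-like nuclei lay above that of the cortical ones, and that of CA1-like above the next class, the astrocyte-like nuclei at 21.6 (13.0 to 33.7). Thalamic-like nuclei had 13.5 CPM and dentate granule-like nuclei 3.52 (1.87 to 6.02). Neighbours below the CA1-like nuclei overlapped.

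**Figure D1:**
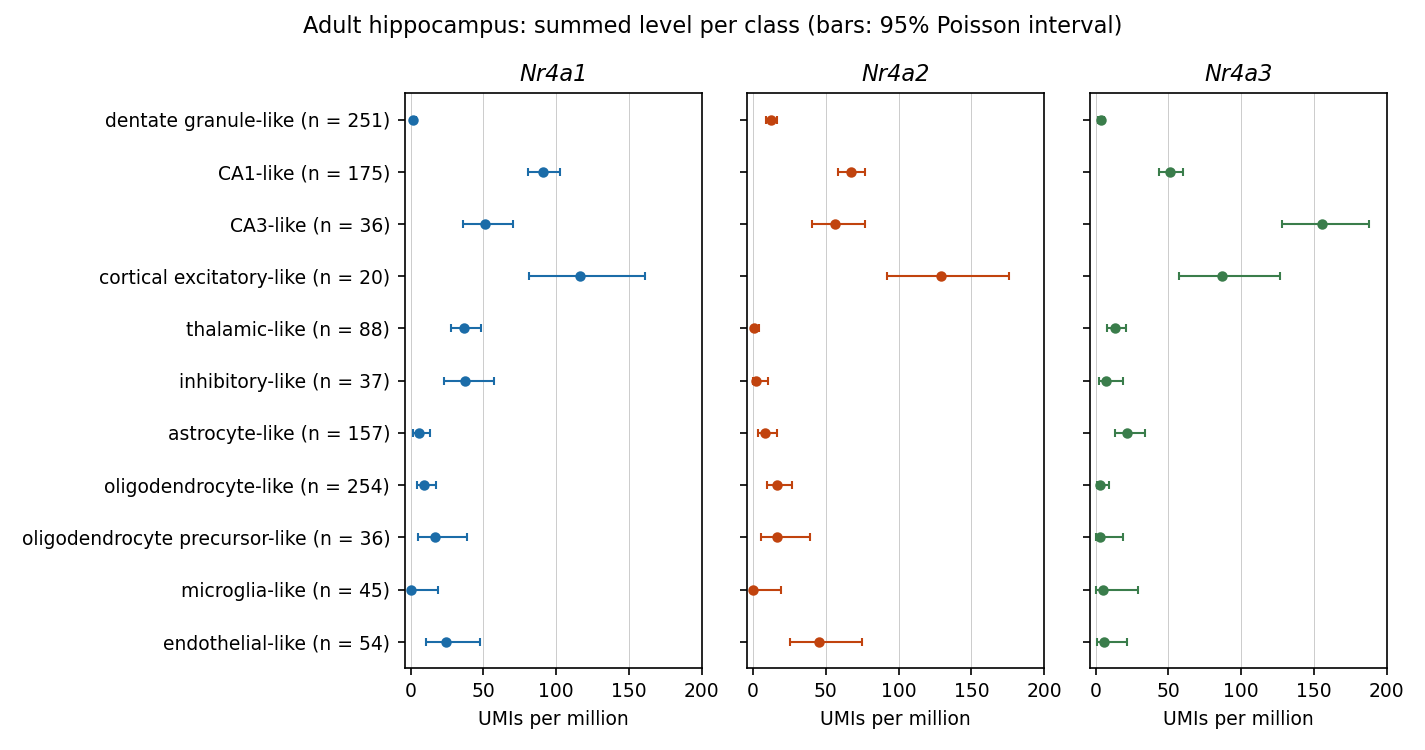
Summed level of each Nr4a gene (CPM, UMIs per 1000000 UMIs of the class, horizontal axis) in the 11 adult classes with at least 20 nuclei (rows, n = nuclei). Points are sums over nuclei and bars are exact 95% Poisson intervals. CA1-like, CA3-like and cortical excitatory-like nuclei stand to the right in all 3 panels, with CA3-like first for Nr4a3 at 156, and dentate granule-like nuclei stand near 0 for Nr4a1. Without 1 nucleus each, the Nr4a2 levels of cortical excitatory-like and CA3-like nuclei were 24.0 and 28.0.

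Shares of nuclei were compared after each nucleus was thinned to 2000 UMIs, because detection rises with depth. Nr4a3 was then found in 12 of 33 CA3-like nuclei (36.4%, exact binomial interval 20.4 to 54.9), 15 of 156 CA1-like nuclei (9.62%, 5.48 to 15.4) and 3 of 243 dentate granule-like nuclei (1.23%, 0.255 to 3.57). Nr4a1 was found in 27 of 156 CA1-like (17.3%, 11.7 to 24.2), 6 of 34 inhibitory-like (17.6%, 6.76 to 34.5) and 1 of 243 dentate granule-like nuclei (0.412%, 0.0104 to 2.27). It was found in 0 of 33 CA3-like nuclei, which allows a share of up to 9.09% (for a count of 0 the limit given is 3 counts of the total, and the exact binomial interval here reaches 10.6%). Without thinning, Nr4a1 was found in 13 of 36 CA3-like nuclei (36.1%) and Nr4a3 in 22 (61.1%). The CA3-like shares at 2000 UMIs rest on 1 draw, which was not repeated for this class. Nr4a2 was found in 10 of 156 CA1-like (6.41%, 3.12 to 11.5), 3 of 243 dentate granule-like (1.23%) and 0 of 73 thalamic-like nuclei, which allows up to 4.11% (exact interval to 4.93%). Without thinning, the CA1-like shares were 60.0%, 34.9% and 40.0% at a median depth of 18066 UMIs, and those of dentate granule-like nuclei 2.39%, 12.4% and 3.98% at 12282. Over 20 further draws at 2000 UMIs the CA1-like shares ran from 11.5% to 21.2% for Nr4a1, 6.41% to 12.2% for Nr4a2 and 4.49% to 11.5% for Nr4a3, so the draw reported is the lowest for Nr4a2. Dentate granule-like nuclei were taken from the same section and droplets. The level of free Nr4a RNA was not measured, so free RNA and true messages cannot be told apart in their low Nr4a1 and Nr4a3 shares.

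Single nuclei carried much of several sums. A CA3-like nucleus of 64602 UMIs held 10 Nr4a1, 22 Nr4a2 and 34 Nr4a3 UMIs, 35.5% of all Nr4a UMIs of its class. Without it, CA3-like nuclei had 40.5, 28.0 and 118 (93.2 to 148) CPM, so the Nr4a3 level still exceeded those of the other adult classes, though its interval then overlapped that of the cortical one. A cortical excitatory-like nucleus of 18354 UMIs held 5, 33 and 14 UMIs. Without it, Nr4a2 in that class was 24.0 instead of 129 CPM (9.65 to 49.4), with an interval below that of the CA1-like nuclei, Nr4a3 was 44.6 instead of 87.1 and Nr4a1 was 106. Only 2 of the 20 cortical nuclei held Nr4a2 at all, with 33 and 7 UMIs. The nucleus with 33 also held 22 UMIs of Ccn2, a gene of layer 6b neurons, the deepest cortical layer. Ccn2 was found in 5 of the 20 nuclei and together with Nr4a2 in 1. An astrocyte-like nucleus of 36123 UMIs held 15 of the 19 astrocyte-like Nr4a3 UMIs, and the class had 4.73 CPM without it. An oligodendrocyte-like nucleus, which clustered with the cortical neurons, held 7 Nr4a1 and 9 Nr4a2 UMIs, and without it the class had 2.10 and 7.33 CPM. By contrast, the highest CA1-like nucleus held 8.15% of the 638 Nr4a UMIs of its class, and the levels without it were 88.9, 57.7 and 47.7 CPM.

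CA1-like and dentate granule-like nuclei, the hippocampal principal neurons with the most nuclei here, differed in all 3 genes. Nr4a1 was 48.2-fold higher in CA1-like nuclei (23.1 to 121), Nr4a3 14.6-fold (8.27 to 27.9) and Nr4a2 5.38-fold (3.89 to 7.58). All 3 genes were at least 2-fold higher, as were 8.38% of the 12892 genes with at least 20 UMIs over both classes, and the median gene differed by -0.11 on the log2 scale. In CA1-like nuclei the highest count in 1 nucleus was 10 UMIs for Nr4a1, 30 for Nr4a2 and 12 for Nr4a3, against 2, 5 and 2 in dentate granule-like nuclei. Median depth was 18066 against 12282 UMIs, Malat1 made up 6.49% against 5.60% of UMIs, and 8 stress genes summed to 643 against 504 CPM. Astrocyte markers summed to 19.0 against 64.7 CPM and microglia markers to 153 against 172. Their part in the difference was not tested.

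Of the 16 immediate early genes, 13 reached those 20 UMIs, and 8 of these were at least 2-fold higher in CA1-like nuclei and 2 at least 2-fold lower. Npas4, a neuronal activity factor, had 35.8 CPM against a single UMI in dentate granule-like nuclei (132-fold, 23.2 to 5268). Arc, which acts on glutamate receptor traffic at synapses, had 47.0 against 1.35 (34.7-fold, 14.5 to 108) and Fos 13.8 against 1.08 (12.7-fold, 4.62 to 48.9). Egr1 had 61.4 against 8.94, Junb 58.8 against 17.3 and Homer1 304 against 71.5. The list did not go one way. Jun had 4.60 CPM in CA1-like and 95.6 in dentate granule-like nuclei, Btg2 had 6.90 against 33.0, and Bdnf, a growth factor gene with many promoters, had 59.4 against 108. Of 13 genes for CREB, MEF2, SRF and their partners, 0 were at least 2-fold higher in CA1-like nuclei. At least 2-fold lower were 2, Crtc3 (64.4 against 138) and Mef2c (106 against 493). Shares of all genes at least 2-fold lower were not counted here or in the embryo. Creb1 had 51.2 against 55.2 CPM. Of the retinoid X receptors, partners with which Nr4a1 and Nr4a2 can pair, Rxrb had 15.4 against 20.3, Rxra had 4 against 3 UMIs and Rxrg had 0 in both classes.

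**Figure D2:**
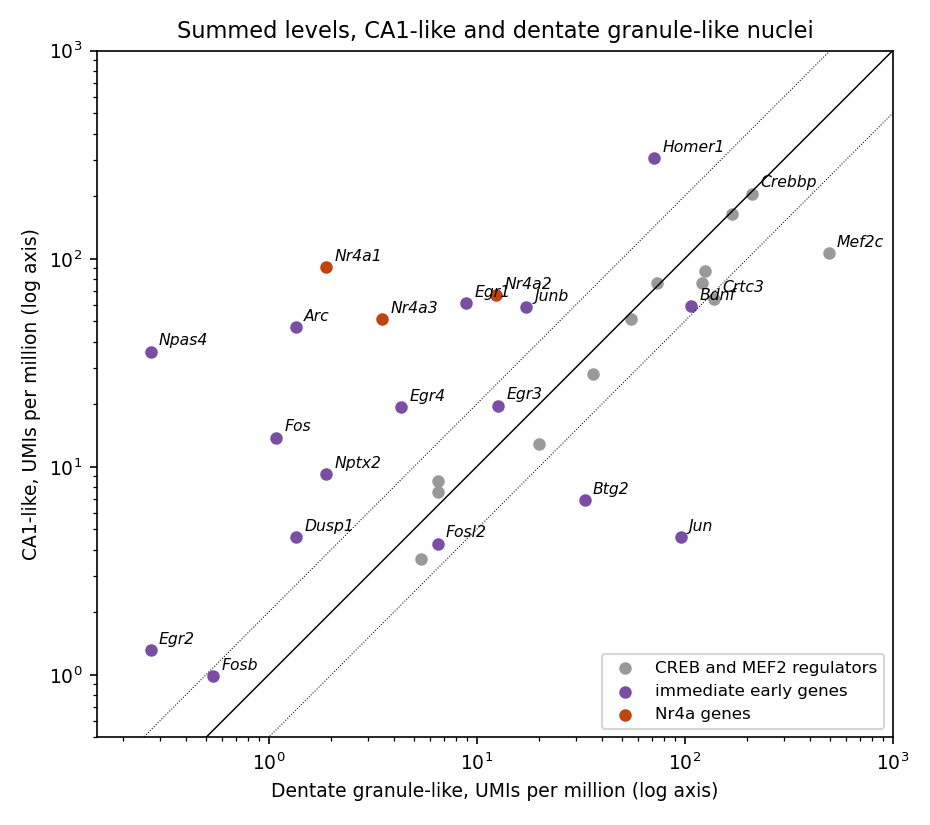
Summed levels in dentate granule-like (horizontal) and CA1-like nuclei (vertical), in CPM on log axes, for the Nr4a genes, 16 immediate early genes and 13 CREB and MEF2 regulators; 1 point per gene. The solid line marks equal levels and the dotted lines a 2-fold difference. The Nr4a genes lie above the upper dotted line together with Npas4, Arc and Fos, while Jun and Btg2 lie below the lower one.

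Within area CA1, all 3 genes were unevenly spread. The CA1-like nuclei were split by summed UMIs of 4 genes against 4 others, Ndst4, Fras1, Col11a1 and Astn2 against Epha3, Fstl4, Robo2 and Mdga1. These lists come from genes that the study ranked between CA1 sublayers on nuclei of this library, a ranking that also holds Nr4a2, so the split is not independent of what was known of Nr4a2. The Ndst4 side took 70 nuclei with a median of 18650.5 UMIs and the Epha3 side 92 with a median of 18413, while 13 nuclei with a median of 1416 were tied. The sides fell in different clusters. Of the Ndst4 side 46 nuclei were in a CA1 cluster led by Ndst4, 14 in the other CA1 cluster and 9 in a cluster poor in Malat1, and of the Epha3 side 88 were in the other CA1 cluster and 3 in the one poor in Malat1. Calb1, a marker of superficial CA1 neurons that was not used for the split, had 10.4 CPM on the Ndst4 side and 50.4 on the Epha3 side.

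Nr4a2 had 176 UMIs on the Ndst4 side and 28 on the Epha3 side, 140 CPM (120 to 162) against 16.0 (10.7 to 23.2), a fold of 8.74 (5.84 to 13.5). It was found in 43 of 70 nuclei against 18 of 92, with a median of 1 against 0 UMIs and a highest count of 30 against 3. Nr4a1 had 136 CPM (117 to 158) against 61.3 (50.2 to 74.1), 2.22-fold (1.73 to 2.86), and was found in 48 of 70 against 57 of 92 nuclei, with medians of 2 and 1 UMIs and highest counts of 10 and 6. Nr4a3 had 79.6 CPM (64.8 to 96.9) against 31.5 (23.7 to 41.0), 2.53-fold (1.80 to 3.58), in 36 of 70 against 33 of 92 nuclei, with highest counts of 12 and 11. Nuclei of both sides overlapped for each gene, since some on the Ndst4 side held no UMI. Nr4a1 was thus found in most nuclei of both sides, whereas Nr4a2 was found in most nuclei of the Ndst4 side but not of the Epha3 side. After thinning to 2000 UMIs, Nr4a2 was found in 14.5% of 62 and 1.11% of 90 nuclei (6.86 to 25.8 and 0.0281 to 6.04), Nr4a1 in 19.4% and 16.7% (10.4 to 31.4 and 9.64 to 26.0) and Nr4a3 in 16.1% and 5.56% (8.02 to 27.7 and 1.83 to 12.5).

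All 3 members were at least 2-fold higher on the Ndst4 side, as were 3.05% of the 10568 genes with at least 20 UMIs, and the median gene differed by 0.01 on the log2 scale. Of the 16 immediate early genes, each had a fold above 1, 9 of them with an interval above 1, and the median fold was 2.15. Of the 11 that reached those 20 UMIs, 6 were at least 2-fold higher. Fos was 3.10-fold higher (1.56 to 6.50), Egr1 2.39-fold (1.76 to 3.27), Arc 2.33-fold (1.64 to 3.34) and Btg2 4.45-fold (1.56 to 15.5). Npas4 stood apart, with 36.6 against 35.5 CPM, a fold of 1.03 (0.689 to 1.53), but it was found in 26 of 70 nuclei against 12 of 92. Of 13 regulators, 12 reached those 20 UMIs and 1 of these was at least 2-fold higher. The median fold of the 13 was 0.982. The 1 was Crem (18.3 against 8.59 CPM, 2.13-fold, 1.07 to 4.39), an inducible member of the CREB family. Sik1, a kinase that restrains CREB coactivators, was below the limit, with 9 against 2 UMIs (6.25-fold, 1.29 to 59.5). Malat1 made up 6.85% and 6.21% of UMIs on the Ndst4 and Epha3 sides and stress genes summed to 715 and 572 CPM. Their part was not tested. With neither Ndst4 nor Epha3 in the lists, the folds were 1.81 for Nr4a1, 5.04 for Nr4a2 and 2.28 for Nr4a3.

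**Figure D3:**
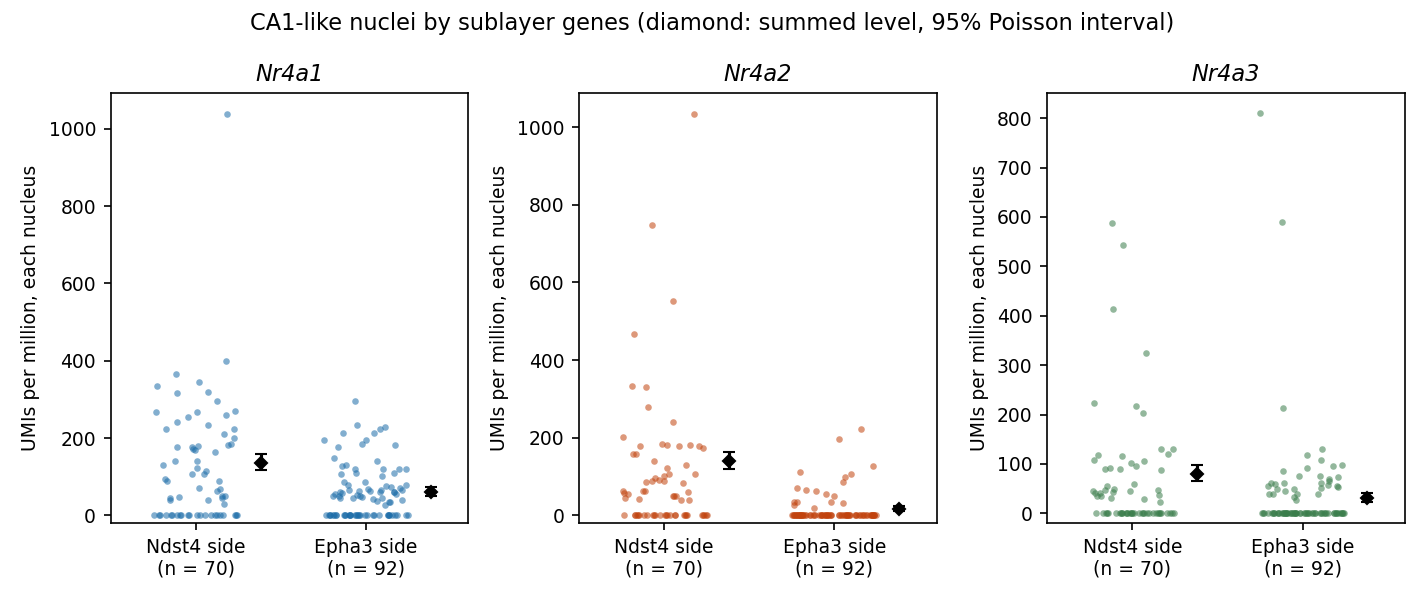
Level of each Nr4a gene in single CA1-like nuclei (UMIs per 1000000 UMIs of the nucleus, vertical axis; each panel has its own scale) on the Ndst4 side (n = 70) and the Epha3 side (n = 92). Each point is a nucleus, and diamonds with bars are the summed level with its exact 95% Poisson interval. For Nr4a2 the summed levels are 140 and 16.0, and most Epha3-side nuclei lie at 0, while for Nr4a1 most nuclei of both sides lie above 0.

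The 3 genes were often found in the same nucleus. Of 175 CA1-like nuclei, 51 held none of them, 47 held 1, 42 held 2 and 35 held all 3, so 44.0% (36.5 to 51.7) held 2 or 3. Depth limits such counts. At 2000 UMIs per nucleus 7 of 156 (4.49%, 1.82 to 9.03) held 2 or 3, and at 10000 UMIs, a depth added after the data were seen, 52 of 140 (37.1%, 29.1 to 45.7). In 20 further draws at 10000 UMIs the share ran from 29.3% to 36.4%, so the draw reported lies above all 20. In that draw, Nr4a2 was found in 44.0% of CA1-like nuclei with Nr4a1 and in 15.4% of those without it, and Nr4a3 in 58.1% of nuclei with Nr4a2 and 17.5% of those without. Over the 20 draws these shares ran from 40.0% to 48.0%, 9.09% to 21.2%, 31.1% to 55.8% and 17.3% to 29.7%, so the 58.1% also lies above every one of them.

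In the same draw, Nr4a2 was also found more often beside Nr4a1 within each side of CA1, though these are shares of few nuclei. Draws were not repeated for the sides. On the Ndst4 side, Nr4a2 was found in 74.3% of nuclei with Nr4a1 and 35.0% of those without it, at 10000 UMIs and 55 nuclei. On the Epha3 side, with 83 nuclei, it was found in 17.5% and 6.98%. All 3 genes together were found in 15 of 55 and 4 of 83 nuclei. Other classes at 10000 UMIs differed in this respect. In dentate granule-like nuclei 153 of 177 held none of the 3 genes, 21 held 1, 3 held 2 and 0 held all 3, which allows a share of up to 1.69% (exact interval to 2.06%). Of 31 CA3-like nuclei 8 held 2 or 3 (25.8%, 11.9 to 44.6), and of 17 cortical excitatory-like nuclei 5 did (29.4%). In thalamic-like nuclei 18 of 54 held 1 gene and 2 held 2, and in inhibitory-like nuclei 7 of 26 held 1 and 1 held 2. Of these classes CA1-like nuclei had the highest share with 2 or 3 genes in this draw, with overlapping intervals for CA3-like and cortical excitatory-like nuclei.

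Nuclei that held more Nr4a genes also held more UMIs of other immediate early genes. At 10000 UMIs, the 51 CA1-like nuclei with no Nr4a gene in the same draw had a median of 3 UMIs over 16 listed genes. The 37 with 1 had 5, the 33 with 2 had 6 and the 19 with all 3 had 13. With Homer1, which gave the most UMIs, left out, the medians were 1, 2, 3 and 6. All 19 nuclei with 3 Nr4a genes held an immediate early UMI other than Homer1, with 2 to 17 UMIs, as did 34 of the 51 with none, with 0 to 10. The groups overlapped. On the Ndst4 side alone, the medians without Homer1 were 3, 3, 3 and 6, so there only the nuclei with all 3 genes stood higher, and on the Epha3 side they were 1, 1, 2 and 2.5.

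**Figure D4:**
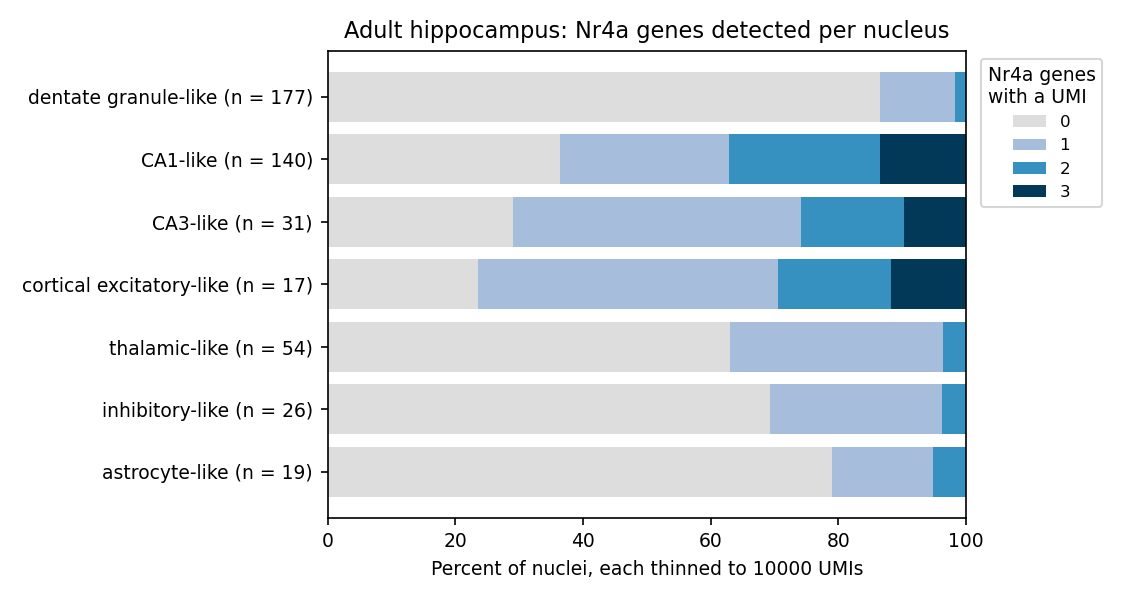
Share of nuclei (percent, horizontal axis) with 0, 1, 2 or 3 Nr4a genes detected in the 7 adult classes with at least 15 nuclei of 10000 UMIs, each nucleus thinned to 10000 UMIs in 1 draw (n = nuclei). Bars add to 100. The dark segments for 2 and 3 genes reach 37.1% of CA1-like nuclei, and in dentate granule-like nuclei 153 of 177 fall in the grey segment for none.

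In the E14 brain only Nr4a3 had a leading class whose interval lay above that of the next. Nr4a3 stood highest in cortical excitatory-like nuclei, the young projection neurons of the cortex, with 173 UMIs in 93 of 363 nuclei, 45.9 CPM (39.3 to 53.2). This is 9.04-fold (7.14 to 11.5) the level in the other classed nuclei, and of 18298 genes with at least 20 UMIs 2.7% were at least 2-fold higher in this class. Nr4a1 and Nr4a2 were not among them, with 8.49 CPM (5.80 to 12.0) and 5.57 (3.45 to 8.51). The next class for Nr4a3, mural-like nuclei, had 13.1 CPM (3.56 to 33.4), the interval of which lay below. Choroid plexus-like (11.9), intermediate progenitor-like (11.8) and radial glia-like nuclei (8.59) followed with overlapping intervals, and the striatal-like and Gata GABAergic-like nuclei and those of the dopaminergic list held 0 UMIs (intervals up to 8.43, 5.89 and 9.37 CPM). At 2000 UMIs, Nr4a3 was found in 28 of 352 cortical excitatory-like nuclei (7.95%, 5.35 to 11.3), 1 of 240 radial glia-like nuclei (0.417%) and 0 of 73 erythroid-like nuclei, which allows up to 4.11% (exact interval to 4.93%). Without thinning, erythroid-like nuclei held 8 Nr4a3 UMIs, 7.99 CPM (3.45 to 15.8), which is near the level of radial glia-like nuclei. Of these UMIs, 6 were in 1 nucleus of 208500 UMIs, the deepest of the library, which fell in the endothelial cluster. The erythroid-like class rested on 5 of 8 markers, and its median depth was 1076 UMIs against 6873 in the cortical class.

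Most of the immediate early genes did not follow Nr4a3 there. Of the 10 with at least 20 UMIs, 1 was at least 2-fold higher in the cortical class, Fosl2 (3.71 against 1.54 CPM), and 2 were at least 2-fold lower. None of the 13 CREB and MEF2 regulators was at least 2-fold higher or lower. Homer1 was 1.46-fold higher in the cortical class (93.3 against 64.1 CPM, 1.29 to 1.63). Egr4, Fos, Fosb and Arc had 0 UMIs in that class. They had 0, 9, 2 and 10 UMIs in the other classed nuclei, so these zeros say little. Egr1 had 0.530 CPM in the cortical class and Npas4 0.530. In the cortical nuclei that also clustered together, 85 held Nr4a3 and 222 did not, with median depths of 9173 and 4921 UMIs. Nr4a1 had 11 and 14 UMIs in the nuclei with and without Nr4a3, and Nr4a2 had 4 and 8. Homer1 had 117 (98.1 to 138) and 82.9 (69.2 to 98.5) CPM in these groups, with overlapping intervals. Jun went the other way, with 5.12 (1.88 to 11.1) and 13.5 (8.36 to 20.6). Fezf2, a gene of neurons that project below the cortex, had 57.1 (44.3 to 72.6) and 43.7 (33.9 to 55.4) CPM, with overlapping intervals. Among genes with at least 50 UMIs, ranked after the values were seen by the ratio of CPM + 10, the outermost included Rspo2 (47.8 against 4.50 CPM) and Chrm3 (297 against 90.6), higher with Nr4a3, and Foxp2 (122 against 368), Unc5d (1139 against 3098) and Prex1 (33.3 against 164), lower with it. The 7 subplate genes did not go one way. Cplx3 and Ccn2 had 0 UMIs in both groups and Moxd1 0 and 1, Tmem163 had 64.0 against 34.7 CPM and Inpp4b 69.9 against 60.4, and Nxph4 had 39.2 against 53.4 and Svil 7.68 against 19.3.

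Among the named classes of the embryo, Nr4a2 stood highest in progenitors. Radial glia-like nuclei, the neural stem cells, had 75 UMIs in 47 of 285 nuclei, 29.3 CPM (23.0 to 36.7), which is 2.94-fold (2.24 to 3.82) the level in other classed nuclei. In that comparison 8.74% of genes were at least 2-fold higher. Of 10 immediate early genes with at least 20 UMIs, 3 were at least 2-fold higher in radial glia-like nuclei, among them Jun (2.87-fold, 2.28 to 3.58) and Btg2 (25.4 against 8.25 CPM), and 3 were at least 2-fold lower. Intermediate progenitor-like nuclei had 26.4 CPM (17.7 to 37.9), choroid plexus-like nuclei 22.5 (15.6 to 31.4), Gata GABAergic-like nuclei 16.0 and endothelial-like nuclei 15.8 (11.0 to 22.1). Forebrain GABAergic-like (7.17), hypothalamic-like (5.74), cortical excitatory-like (5.57), thalamic-like (11 UMIs) and striatal-like nuclei (2.29) stood lowest. Each class overlapped its neighbour in this order.

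The radial glia-like nuclei were not uniform in Nr4a2. Of genes of dorsal forebrain progenitors, Emx1 had 77.1 CPM, Pax6 501 and Lhx2 229 in the 141 that fell in 1 cluster, and these nuclei had 49.3 CPM of Nr4a2 (37.1 to 64.2). The 76 in a cluster led by Adgrv1, Sox1ot and Ano1 had 8.31 CPM of Nr4a2 (3.05 to 18.1). In them Pax6 had 92.8 and Lhx2 67.9 CPM, in 32 and 34 nuclei, and Dlx1 and Nkx2-1, genes of ventral progenitors, had 80.4 and 59.6, in 23 and 18 nuclei, against 19.7 and 9.86 CPM in the first cluster. Mki67, a gene of dividing cells, had 258 and 355 CPM, and their median depths were 4602 and 5537 UMIs. Nr4a3 had 10.8 and 1.39 and Nr4a1 4.48 and 9.70 CPM in these groups. Among forebrain GABAergic clusters, chosen after their values were seen, Nr4a2 had 24.9 CPM (19.3 to 31.7) in 471 nuclei led by Trpc4 and Lhx8 and 5.72 (2.86 to 10.2) in 453 nuclei led by Dlx6os1, Sox6, Erbb4 and Lhx6.

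The highest Nr4a2 level in CPM among those classes, 33.0 (17.6 to 56.5) from 13 UMIs, overlapped that of the radial glia-like nuclei and was in 53 nuclei called by a list of dopamine neuron genes, in which Nr4a2 was not used. The data went against that name. Foxa2, which specifies midbrain dopamine neurons, had 0 UMIs, Pitx3 had 2 and En1 had 4, while Th, the rate-limiting enzyme of dopamine synthesis, had 17 UMIs in 12 nuclei. Ddc (503 CPM) and Slc18a2 (239), which serotonin and other amine neurons also use, had the most UMIs of the list. In the 23 nuclei with Lmx1b, Nr4a2 had 11 UMIs in 8 nuclei (68.9 CPM, 34.4 to 123), and in the 30 without it 2 UMIs in 1 nucleus (8.55, 1.04 to 30.9). Slc6a3, the dopamine transporter, had 75.1 and 17.1 CPM in the same groups and Th 31.3 and 51.3.

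Nr4a1 was low in the 16 embryonic classes of at least 20 nuclei. It ran from 0.661 CPM (0.0167 to 3.68) in choroid plexus-like to 8.99 (4.11 to 17.1) in erythroid-like nuclei, and every pair of neighbours in the order overlapped. Its level in erythroid-like nuclei rests on 9 UMIs in 9 of 187 nuclei. Co-detection was rare in the embryo. Of 9036 nuclei 927 held 1 Nr4a gene, 86 held 2 and 4 held all 3, and at 10000 UMIs 21 of 1393 held 2 and 0 held 3. The retinoid X receptor Rxrb was present in both libraries (255 UMIs in the adult and 892 in the embryo), and Rxrg had 5 and 160 UMIs.

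**Figure D5:**
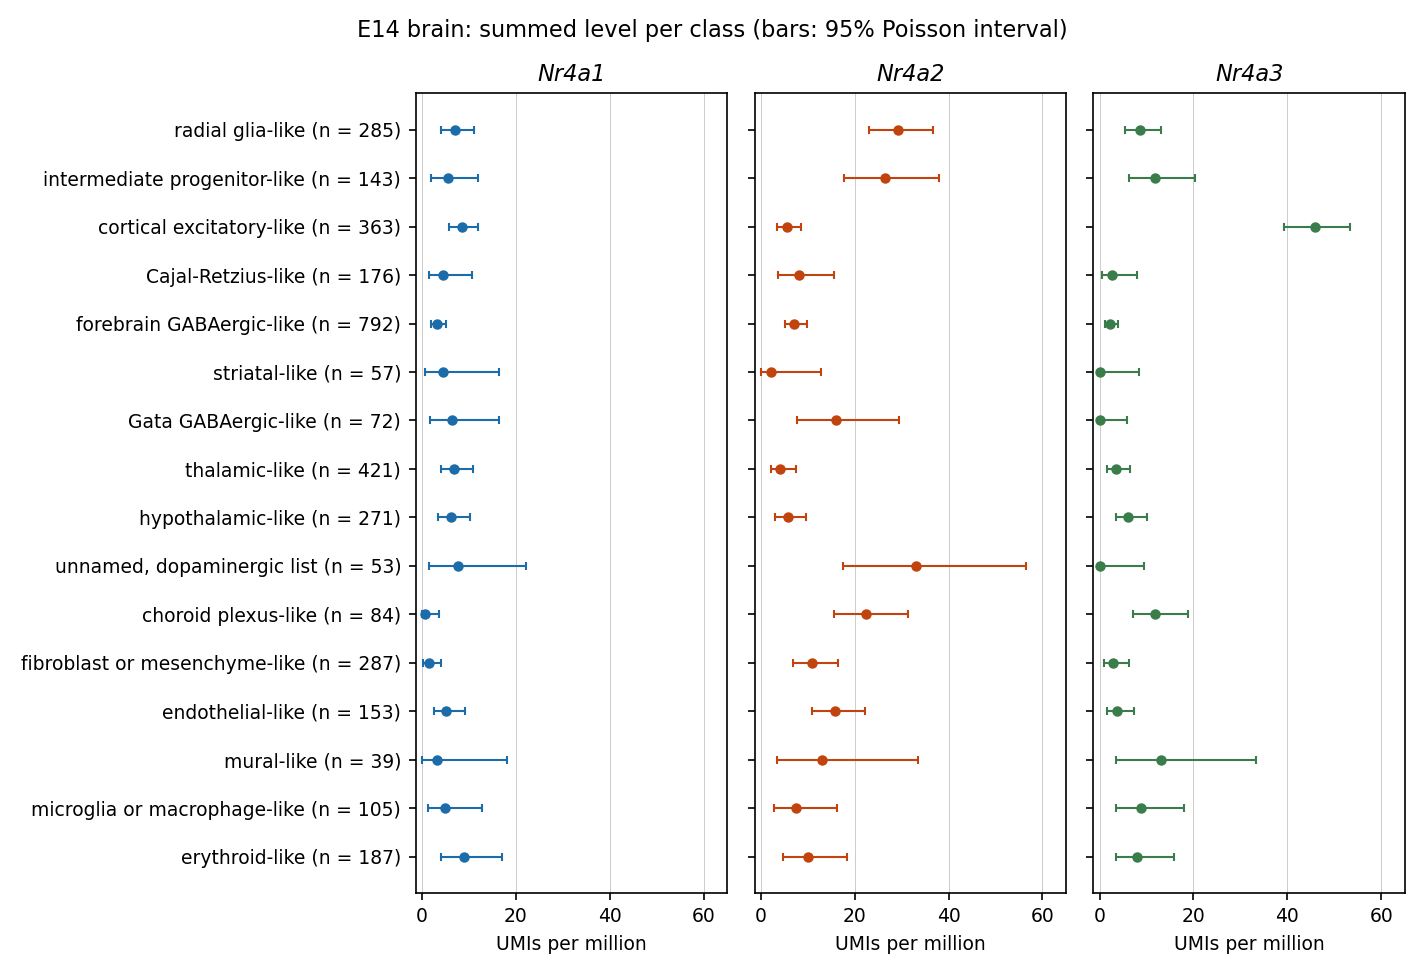
Summed level of each Nr4a gene (CPM, UMIs per 1000000 UMIs of the class, horizontal axis) in the 16 E14 classes with at least 20 nuclei (rows, n = nuclei). Points are sums over nuclei and bars are exact 95% Poisson intervals. Nr4a3 stands out in cortical excitatory-like nuclei at 45.9, Nr4a2 has overlapping intervals among its first classes, the dopaminergic list at 33.0, radial glia-like at 29.3 and intermediate progenitor-like nuclei at 26.4, and Nr4a1 stays below 10 in every class shown.

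Across the 11 adult classes, the levels of the 3 genes were related to each other with Pearson r of 0.68 for Nr4a1 and Nr4a2, 0.71 for Nr4a1 and Nr4a3 and 0.68 for Nr4a2 and Nr4a3, on log2(CPM + 10). Across the 16 embryonic classes, r was -0.03, 0.13 and -0.02. The classes of a tissue share a library and differ in depth, and these are descriptions. In the adult, 1 nucleus held 82.5% of the Nr4a2 and 51.9% of the Nr4a3 UMIs of the cortical excitatory-like class. Another held 55% and 30.9% of those of the CA3-like class. The r values, also those for other genes given next, were not computed without these nuclei. The genes most like each member in the adult, of 13367 with at least 50 UMIs, were Runx1t1 (r = 0.93), Gm44643, Zscan20, Cpne5 and Rab6a for Nr4a1. For Nr4a2 they were Gadd45b (0.94), Npas4 (0.92), Nfkbiz, Frmd6 and Shf. Nr4a3 was followed most closely by Rspo2 (0.90), Pip4k2c, 1700016P03Rik, Neurod6 and Khdrbs3. In the embryo, of 15911 genes, the first were Fndc8 (0.84) for Nr4a1, Dcp1a (0.86) for Nr4a2 and Znrf2 (0.88) for Nr4a3, the last followed by Itpk1, Neurod6, Tfb1m and Fezf2. Neurod6, a factor of cortical and pyramidal projection neurons, stood in the list of Nr4a3 in both tissues, and it was one of the markers that defined the embryonic cortical class. Rspo2 led the adult list of Nr4a3 and also ranked first by that ratio among genes higher in embryonic cortical nuclei with Nr4a3, which were the deeper nuclei. Gadd45b, which follows Nr4a2, is also on the list of stress genes.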

How the data were processed

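The counts used are UMI counts per gene and nucleus, deposited by the authors as filtered matrices, with intronic reads counted on mm10 by Cell Ranger 6.1.2 (adult) and 7.0.1 (embryo) per the file headers. The study's methods name CellBender background removal for the embryo, and whether it was applied to this matrix is not settled, which bears on its low counts and free RNA. Spatial positions were not used here. The 3 members and all gene lists were chosen with earlier results of these data known. Barcodes below 500 UMIs, or with 5% or more of them mitochondrial, were dropped. A nucleus took the class whose 8 markers led, given at least 3 marker UMIs over 2 genes and a lead of 2 in score over the next class, limits set after comparison with Seurat 5.3.0 clusters (2000 variable genes, 30 components, resolution 0.8). UMIs were summed per class, with exact Poisson intervals for levels, exact binomial intervals for shares and exact conditional intervals for folds, all at 95%. Shares were thinned to 2000 UMIs. Doublets were kept. Scrublet's automatic threshold marked 6 adult and 1 embryonic nuclei and was taken as not having worked, so its highest-scoring 21 and 653 nuclei were removed as an alternative. Genes named are the members, the fixed lists and, per member and tissue, the 5 with the highest Pearson r of log2(CPM + 10) across classes, among genes with at least 50 UMIs, and others are said to be chosen after their values were seen. Each tissue had 1 library, so no test between groups was made. The intervals, classes and thinning were tested on simulated data. Python 3.11.15, numpy 2.4.6, scipy 1.17.1, pandas 2.3.3 and scanpy 1.11.5 were used. Some results are not reported here.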

Additional observations from a re-analysis of the deposited data

Results flagged for a closer look

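Nuclei that received no class entered no comparison of classes, yet held many of the Nr4a UMIs. In the embryo they held 178 of 330 Nr4a1, 338 of 670 Nr4a2 and 232 of 530 Nr4a3 UMIs (5.83, 11.1 and 7.60 CPM). In the adult they held 70 of 527, 101 of 478 and 54 of 409 (24.4, 35.2 and 18.8 CPM). In such nuclei of the clusters given next, Nr4a2 was above the limit that a count of 0 allows. In the adult, a cluster of 203 nuclei led by Nrgn, Map1a and Hpca, genes of mature neurons, had 154 nuclei without a class, which held 17 Nr4a2 UMIs (96.8 CPM, 56.4 to 155) in 13 nuclei. Their median depth was 770.5 UMIs and Malat1, a nuclear RNA, made up 0.614% of their UMIs, against 6.49% in CA1-like nuclei. In the embryo, a cluster of 969 nuclei led by the globin genes Hbb-bs and Hba-a1 had 803 nuclei without a class, which held 16 Nr4a2 UMIs (22.1 CPM, 12.6 to 35.9) in 13 nuclei. Their median depth was 721 UMIs, with Malat1 at 1.67%.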

How the results depend on the processing

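Sums depend on few nuclei, and so does the order of classes. Without the 5 nuclei of a class with the most UMIs of the gene, which lowers each level by construction, Nr4a1, Nr4a2 and Nr4a3 had 80.8, 42.1 and 35.7 CPM in CA1-like and 0.280, 8.25 and 1.40 in dentate granule-like nuclei, Nr4a3 had 82.2 in CA3-like and Nr4a2 22.1 in radial glia-like nuclei. Nr4a2 in cortical excitatory-like nuclei, first of the adult classes at 129 CPM, was then 0 and below CA1-like nuclei, and 24.0 without its 1 leading nucleus. As a mean over nuclei, Nr4a2 had 52.1 CPM in CA1-like and Nr4a3 125 in CA3-like nuclei. With Louvain clusters as classes, radial glia Nr4a2 was 40.8 CPM, and where class and cluster agreed, an alternative added after seeing the data, it was 49.3 and cortical Nr4a3 in the embryo 56.5. The cause was not tested. CA1-like shares depend on depth. At 1000 UMIs they were 10.3% for Nr4a1 and 1.82% for Nr4a3, and without thinning 60.0%, 34.9% and 40.0%. The share with 2 or 3 genes was 37.1% at 10000 UMIs and 44.0% without thinning. The Nr4a2 fold between the CA1 sides was 5.04 without Ndst4 and Epha3 in the lists. Other alternatives moved few levels: at least 1000 UMIs moved 1 of 81, a stricter lead 6 of 81 and removal of likely doublets 2 of 81. The genes most like each member depended on the measure, since rank correlation kept 0 to 2 of each 5. No paired analysis was possible because each tissue has 1 library. Depth limits low classes: 0 UMIs do not show absence.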

Other observations

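In the embryo, the choroid plexus cluster of 144 nuclei, led by Htr2c, Ttr and Rspo2, held both Nr4a2 (49 UMIs, 20.6 CPM, 15.3 to 27.3) and Nr4a3 (45 UMIs, 18.9 CPM, 13.8 to 25.3), with 4 Nr4a1 UMIs (1.68 CPM). Of these nuclei 80 were choroid plexus-like by markers, with 34 Nr4a2 UMIs (22.7 CPM) and 18 Nr4a3 UMIs (12.0 CPM, 7.11 to 19.0). The rest included a cortical excitatory-like nucleus of 71292 UMIs with 6 Nr4a3 UMIs and an endothelial-like nucleus of 60982 UMIs with 3. An unnamed cluster of 272 nuclei led by Gm43824, Ebf2 and 4930438E09Rik, with Lmx1b among its leading genes, held 30 Nr4a2 UMIs (17.8 CPM, 12.0 to 25.3) and 5 Nr4a3 UMIs. These clusters were chosen after their values were seen, and the values are given with no explanation.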
